A study of Mus musculus with 8 samples.

Results

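The genes described here are 10 members of the vascular growth factor families: placental growth factor (Pgf), Vegfa, Vegfb and Vegfc, the VEGF receptors Flt1, Kdr and Flt4, and the angiopoietins Angpt1, Angpt2 and Angpt4. They were chosen by symbol, and all 10 were found among the 19301 genes of the expression table. The samples were primary tendon stem cells (TSCs) isolated from the patellar tendon of C57BL/6J mice, and the sources used here name no engineered allele. For 4 days, TSCs were cultured either in low glucose (LG) medium with DMSO or in high fat, high glucose (HFHG) medium, which combines raised glucose with palmitic acid, a saturated fatty acid. There were 4 biological replicates in each group, and polyadenylated RNA was sequenced from stranded libraries. The age of the donor mice and whether animals were pooled for a culture were not given in the sources used here.

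VEGF ligands are secreted dimers that signal through receptor tyrosine kinases. VEGF-A binds VEGFR1 (Flt1) and VEGFR2 (Kdr), placental growth factor and VEGF-B bind Flt1, and VEGF-C and VEGF-D bind VEGFR3 (Flt4) and, once processed, also Kdr. The angiopoietins bind the receptor Tie2 (Tek), on which ANGPT1 acts as an agonist and ANGPT2 as an agonist or antagonist depending on context. Tendon is poorly vascularized in health, and vessel ingrowth driven by VEGF accompanies its healing and the formation of bone on a cartilage template.

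Expression was deposited as FPKM, the fragments of a gene scaled to gene length and to library size. Levels can be compared between genes only as far as the lengths used are right. The lengths recovered from the values were below all annotated exon bases of GENCODE M21 for Pgf (1684 against 2903), Angpt1 (3777 against 5205) and Flt4 (5839 against 8232). For Angpt4 they were close (2338 against 2335). The shares, ratios and orders of genes given below rest on the lengths used. Whole read counts could be worked back from these values, at 34308108 to 37362725 reads per library. LG replicate 4 stood apart from the other LG libraries on the second principal component, which held 4.18% of the variance. The endothelial markers Pecam1 and Cdh5 had means of at most 0.154 FPKM in either group, and 11 of the 16 endothelial markers listed stayed below 0.5 FPKM in every library. Macrophage markers were present, with 12 of 13 above the filter on low values. Their summed level was 1769 to 1819 FPKM in HFHG and 1958 to 2044 FPKM in LG, most of it Lyz2, and Cd163 was near 0. Tendon cell markers summed to 4177 to 4228 FPKM in HFHG and 3011 to 3057 FPKM in LG, most of it matrix genes. In HFHG and LG, Scx was at 2.27 ± 0.558 and 1.45 ± 0.336 FPKM (SD, n = 4 each) and Tnmd at 1.10 ± 0.0908 and 0.614 ± 0.298 FPKM. Mkx was at 6.73 ± 0.536 and 8.62 ± 0.691 FPKM, and Egr1 at 16.0 ± 0.936 and 21.1 ± 0.226 FPKM. Of the 11 tendon markers, 8 were higher and 2 (Mkx and Egr1) lower in HFHG at an adjusted p-value below 0.05. That was 90.9% called, against 64.8% of all tested genes.

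Promoters are shown first for those members whose level differed more than 2-fold between the media and for which a window was found, which leaves out Angpt1. RefSeq windows of GRCm38.p6 ran from 250 bases before to 50 bases after the most upstream transcription start used. They were found for 8 of the 10 members and are shown for Pgf, Vegfb, Flt1 and Angpt4. The windows of Pgf and Flt4 lie inside the GENCODE gene spans given below, downstream of the starts annotated there. Capitals mark GCGTG, one form of the core of the hypoxia response element, and GGGCGG, the GC box, on either strand (CACGC and CCGCCC on the strand printed). The windows are 5′ to 3′ on the strand of the gene.
Pgf, chr12:85177264-85177563, minus strand: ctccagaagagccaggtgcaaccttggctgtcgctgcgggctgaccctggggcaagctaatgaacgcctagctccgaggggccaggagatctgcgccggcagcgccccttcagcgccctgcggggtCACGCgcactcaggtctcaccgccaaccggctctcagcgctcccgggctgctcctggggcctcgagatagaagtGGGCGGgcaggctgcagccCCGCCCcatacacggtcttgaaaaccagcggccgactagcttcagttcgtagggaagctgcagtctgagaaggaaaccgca
Vegfb, chr19:6987602-6987901, minus strand: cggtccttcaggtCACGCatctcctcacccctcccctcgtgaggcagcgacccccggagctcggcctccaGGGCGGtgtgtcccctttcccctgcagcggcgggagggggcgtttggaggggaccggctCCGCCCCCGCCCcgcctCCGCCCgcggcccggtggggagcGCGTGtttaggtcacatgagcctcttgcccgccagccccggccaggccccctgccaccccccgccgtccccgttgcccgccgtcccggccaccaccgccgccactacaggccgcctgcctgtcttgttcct
Flt1, chr5:147725962-147726261, minus strand: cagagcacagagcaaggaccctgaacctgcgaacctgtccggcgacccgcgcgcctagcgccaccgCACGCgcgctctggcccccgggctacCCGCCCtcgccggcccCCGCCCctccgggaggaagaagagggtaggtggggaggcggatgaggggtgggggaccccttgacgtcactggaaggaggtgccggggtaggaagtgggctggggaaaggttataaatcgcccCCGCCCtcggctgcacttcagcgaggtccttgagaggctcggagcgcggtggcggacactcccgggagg
Angpt4, chr2:151910957-151911256, plus strand: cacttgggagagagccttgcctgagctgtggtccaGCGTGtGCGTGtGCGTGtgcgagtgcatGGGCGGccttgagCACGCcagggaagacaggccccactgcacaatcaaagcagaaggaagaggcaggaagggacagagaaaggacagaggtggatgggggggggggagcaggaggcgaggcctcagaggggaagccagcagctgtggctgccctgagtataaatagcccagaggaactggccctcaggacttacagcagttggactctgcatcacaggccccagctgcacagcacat

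Of the 8 member windows, 5 held GCGTG (Pgf, Vegfb, Flt1, Kdr and Angpt4), where 32.4% of all 32851 windows of the same length did. The other core form, ACGTG, was in 0 of the 8 and in 19.6% of all windows, and so was the E-box CACGTG, which contains ACGTG (7.15% of all windows). GGGCGG was in 8 of 8 member windows and in 35.7% of all windows, and the member windows were rich in G and C (60.7% to 75.3%, against a median of 52.7% over all windows). TATAAA was in the windows of Flt1 and Angpt4, and in 13.6% of all windows. TGCNCNC, which covers the core of the metal response element, was in 7 of 8 windows (not in Flt1), and in 51.0% of all windows. Both Flt1, which was higher in HFHG, and Pgf, which was lower, held GCGTG and GGGCGG. A match in these letters does not show that a factor was bound.

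In HFHG, TSCs had less mRNA of Pgf, Vegfa, Vegfb and Angpt4 and more of Vegfc, Flt1 and Angpt1 than in LG. The mean levels of Pgf and Angpt4 in HFHG were 0.210 and 0.213 times those in LG, while those of Flt1 and Angpt1 were 2.93-fold and 2.90-fold higher. A gene was tested if it reached 0.5 FPKM in at least 4 of the 8 libraries, and the log2(FPKM + 0.1) of 11710 genes was compared with limma. Of the 10 members, 8 passed this filter, and Kdr and Angpt2 did not. Flt1 passed only through the HFHG libraries, since it was below 0.5 FPKM in all 4 LG libraries. At an adjusted p-value below 0.05, 3 members were higher and 5 lower in HFHG. Over all tested genes, 64.8% were called by this rule, 34% as higher and 30.8% as lower. When a more than 2-fold difference and an unadjusted p-value below 0.05 were required, 2 members were higher and 3 lower, where 5.33% of all tested genes were called, 3.68% as higher and 1.65% as lower. The values of HFHG and LG did not overlap in the 8 tested members, as in 59.2% of all tested genes (31.1% higher and 28.1% lower in HFHG). The family was proposed when this comparison was known, so these counts and the differences below describe the members and are no independent evidence. In RNA from whole cultures, fewer cells of a type and less RNA per cell cannot be told apart.

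**Figure D1:**
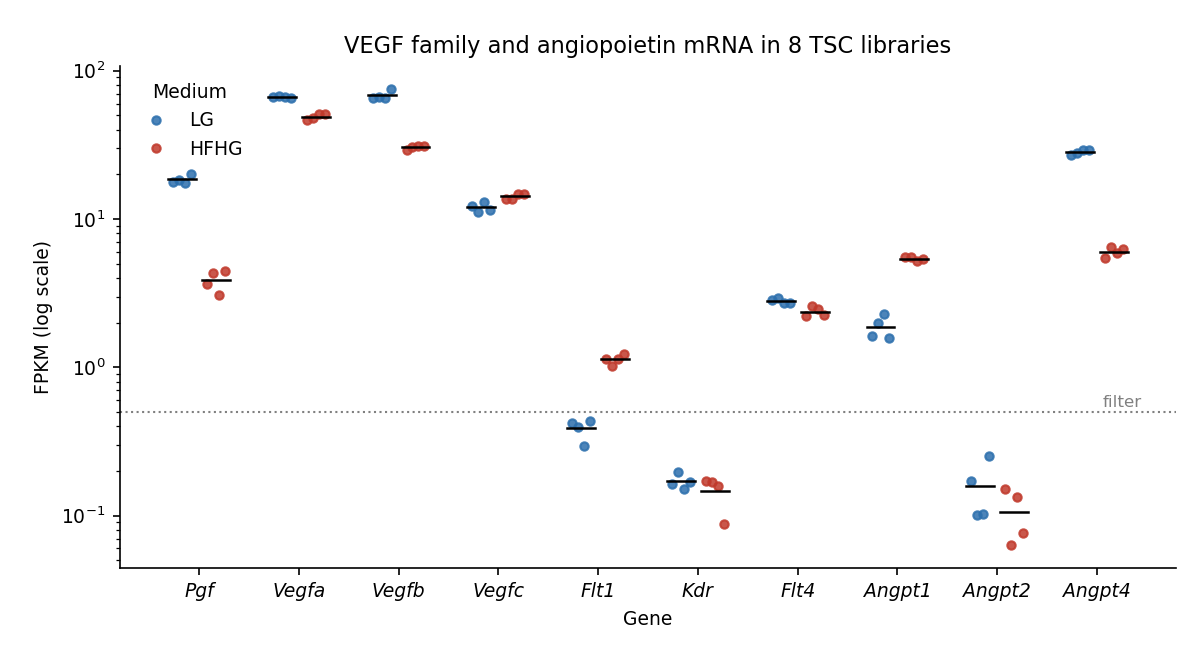
FPKM of the 10 members (log axis) in the 4 LG libraries (blue) and the 4 HFHG libraries (red), with black lines at the group means and a dotted line at the filter of 0.5 FPKM. The points of the groups are separate except for Kdr and Angpt2, and Flt1 crosses the filter between the media.

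Placental growth factor, a ligand of Flt1, is named after the tissue in which it is most abundant. Its decrease and that of Angpt4 were the largest among the 8 tested members and differed from each other by less than either standard error. Pgf (NCBI gene 18654) lies on chromosome 12 of GRCm38 from 85166635 to 85177790. Its level was 3.62, 4.33, 3.08 and 4.47 FPKM in HFHG replicates 1 to 4 and 17.8, 18.4, 17.5 and 20.1 FPKM in LG replicates 1 to 4. The highest HFHG library was far below the lowest LG library. The log2 difference was -2.24 (SE 0.0987), rank 13 among the 11710 tested genes when counted from the lowest. The values rest on 187 to 275 reads per HFHG library and 1030 to 1206 reads per LG library. In HFHG the replicates varied more than counting alone would give, with a coefficient of variation of 16.6% against 6.50%.

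Vegfa, the main inducer of vessel growth, was among the most abundant members. Vegfa (NCBI gene 22339, chromosome 17 from 46016993 to 46032369) was at 46.6, 47.7, 50.8 and 50.8 FPKM in HFHG and at 66.9, 67.8, 66.2 and 65.4 FPKM in LG. The groups did not overlap, but the gap was modest, and the log2 difference was -0.44 (SE 0.0332). HFHG replicates 3 and 4 were above replicates 1 and 2 by more than counting would give. The deposited values are per gene, so splice forms of Vegfa that differ in binding to heparan sulfate cannot be told apart.

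Vegfb, a ligand of Flt1 that has been linked to fatty acid transport in endothelium, was lowered more than Vegfa. Vegfb (NCBI gene 22340, chromosome 19 from 6982473 to 6987651) had 29.1, 30.7, 31.1 and 31.3 FPKM in HFHG and 65.5, 66.8, 65.7 and 75.5 FPKM in LG. Every HFHG library was at less than 0.5 times the lowest LG library, and LG replicate 4 was well above the other LG replicates. The log2 difference was -1.16 (SE 0.0452), and -1.11 without LG replicate 4.

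Vegfc, which acts on Flt4 and is best known for the growth of lymphatic vessels, differed in the other direction. Vegfc (NCBI gene 22341, chromosome 8 from 54077606 to 54187096) had 13.7, 13.7, 14.8 and 14.7 FPKM in HFHG and 12.2, 11.1, 13.1 and 11.4 FPKM in LG. The groups came close, with LG replicate 3 just below the lowest HFHG library, and the log2 difference was 0.25 (SE 0.0537).

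Vegfd, the nearest relative of Vegfc and not one of the 10 genes, was examined with the binding partners. On the X chromosome from 164373378 to 164402650, it had 35.6, 35.2, 37.9 and 36.8 FPKM in HFHG and 17.2, 16.9, 16.5 and 16.3 FPKM in LG. Vegfd rose by 1.12 on the log2 scale (SE 0.0351, adjusted p = 3.39e-11 by limma), so both ligands of Flt4 were higher in HFHG, while the 3 ligands of Flt1 were lower.

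These differences altered the make-up of the ligand mRNA. The 4 member ligands summed to 97.6 ± 3.66 FPKM in HFHG and 165 ± 4.77 FPKM in LG (SD, n = 4 each). With Vegfd included, the sums were 134 ± 4.63 and 182 ± 4.53 FPKM. Of these sums, Vegfa held 36.5% ± 0.371 in HFHG and 36.6% ± 1.32 in LG, a difference smaller than the spread between replicates. Vegfb held 22.8% ± 0.345 and 37.5% ± 1.67, and Pgf held 2.90% ± 0.486 and 10.1% ± 0.384. The shares of Vegfd were 27.1% ± 0.520 and 9.19% ± 0.396, and those of Vegfc were 10.6% ± 0.143 and 6.57% ± 0.584. Vegfa and Vegfb were level in LG (ratio 0.978 ± 0.0749, with LG replicate 4 at 0.866 and the others at 1.01 to 1.02), whereas in HFHG the ratio of Vegfa to Vegfb was 1.60 ± 0.0356. The ratio of Vegfa to Pgf was 12.9 ± 2.50 in HFHG and 3.62 ± 0.249 in LG.

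**Figure D2:**
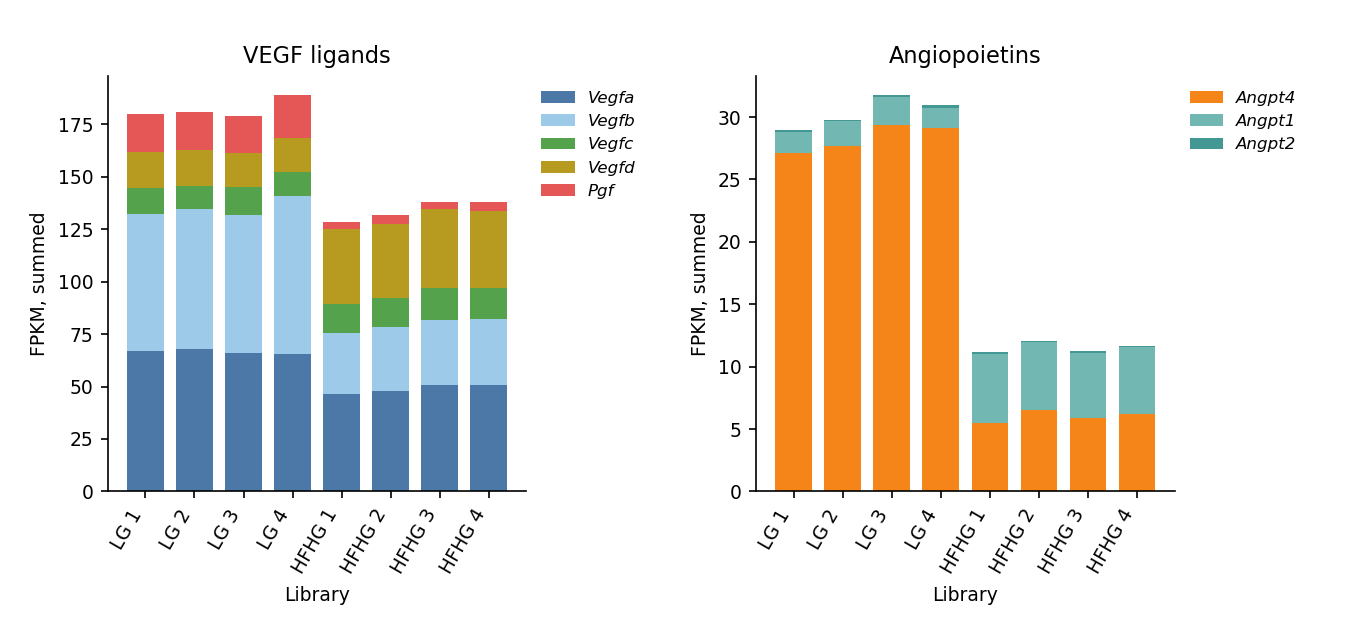
Summed FPKM of the VEGF ligands (left, Vegfd included) and of the angiopoietins (right) in each of the 8 libraries, split by gene. Both sums are lower in the 4 HFHG libraries, where Vegfd takes 27.1% of the ligand sum and Angpt1 takes 46.9% of the angiopoietin sum.

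The receptors were low beside their ligands, as the levels per length show. Summed, the 3 VEGF receptors came to 3.65 ± 0.131 FPKM in HFHG and 3.35 ± 0.155 FPKM in LG (SD, n = 4 each). Flt1 encodes VEGFR1, which binds VEGF-A tightly but signals weakly and also exists as a secreted form without the kinase. Flt1 (NCBI gene 14254, chromosome 5 from 147561604 to 147726011) had 1.14, 1.03, 1.14 and 1.22 FPKM in HFHG and 0.419, 0.397, 0.296 and 0.436 FPKM in LG. All HFHG libraries were at more than 2 times the highest LG library. The log2 difference was 1.35 (SE 0.133), and it is understated by the pseudocount at these low levels, since the ratio of the means was 2.93. The values rest on 506 to 621 reads per HFHG library and 146 to 216 reads per LG library. Reads of the secreted and the membrane form cannot be separated in these values.

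Kdr encodes VEGFR2, the main signaling receptor of VEGF-A on endothelial cells, and was barely detected. Kdr (NCBI gene 16542, chromosome 5 from 75932827 to 75978458) had 0.171, 0.169, 0.159 and 0.0872 FPKM in HFHG and 0.164, 0.197, 0.151 and 0.168 FPKM in LG. The groups overlapped, and HFHG replicate 4 was lower than the other HFHG libraries. Over each group, 167 reads were counted in HFHG and 189 in LG, a ratio per library total of 0.861 (95% exact interval 0.695 to 1.07, counting error only), so a difference was not detectable at this depth.

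Flt4, which encodes the receptor of VEGF-C and VEGF-D and marks lymphatic endothelium, was the highest of the 3 receptors. Flt4 (NCBI gene 14257, chromosome 11 from 49609263 to 49652739) had 2.21, 2.57, 2.45 and 2.25 FPKM in HFHG and 2.84, 2.92, 2.71 and 2.70 FPKM in LG. The groups did not overlap, though the highest HFHG library was close to the lowest LG library. Its log2 difference of -0.23 (SE 0.0748) did not pass an adjusted p-value of 0.05 with FPKM rescaled to the same sum (-0.17) or without HFHG replicate 1 (-0.20). Flt4 stood at 2.11 ± 0.296 times Flt1 in HFHG and at 7.37 ± 1.29 times Flt1 in LG. Of the other lymphatic markers, Prox1 was at 0.0932 ± 0.0415 FPKM in HFHG and 0.0700 ± 0.0319 FPKM in LG (SD, n = 4 each) and Lyve1 was also below 0.5 FPKM in every library. Pdpn, which fibroblasts express as well, fell from 694 ± 6.71 to 442 ± 1.70 FPKM (adjusted p = 1.21e-11 by limma). The part of lymphatic endothelium in the value of Flt4 was not tested.

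The angiopoietins shifted from Angpt4 toward Angpt1. Angpt4, an agonist of Tie2 in the mouse, was the most abundant angiopoietin in LG. Angpt4 (NCBI gene 11602, chromosome 2 from 151911210 to 151945337) had 5.49, 6.50, 5.87 and 6.24 FPKM in HFHG and 27.2, 27.7, 29.4 and 29.2 FPKM in LG. The replicates were close together within each group and far apart between the groups. The log2 difference was -2.22 (SE 0.0536), rank 16 from the lowest among all tested genes.

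Angpt1, the agonist of Tie2 that stabilizes vessels, is made mainly by cells of the mesenchyme. Angpt1 (NCBI gene 11600, chromosome 15 from 42424723 to 42676977) had 5.55, 5.50, 5.23 and 5.37 FPKM in HFHG and 1.62, 1.98, 2.27 and 1.58 FPKM in LG. The HFHG libraries lay within counting error of each other (coefficient of variation 2.65% against 3.67% from counting), whereas the LG libraries were spread more widely (17.4% against 6.33%). The log2 difference was 1.502 (SE 0.102), rank 152 from the highest. In GENCODE M21 an antisense gene, Gm17473, shares 737 exon bases with Angpt1, and whether strand was used in counting was not given in the sources used here.

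Angpt2 (NCBI gene 11601, chromosome 8 from 18690263 to 18741562), which endothelial cells release on activation, had 0.150, 0.0635, 0.133 and 0.0769 FPKM in HFHG and 0.172, 0.101, 0.103 and 0.253 FPKM in LG. The groups overlapped, and LG replicate 4 was the highest of the 8 libraries. The 55 reads in HFHG and 79 in LG gave a ratio of 0.679 (95% exact interval 0.472 to 0.970, counting error only), while the replicates of LG varied by 45.7%. At the gene lengths used, Angpt1 and Angpt4 were near parity in HFHG. The ratio of Angpt4 to Angpt1 was 1.11 ± 0.0863 in HFHG and 15.5 ± 2.52 in LG. The angiopoietin sum was 11.5 ± 0.413 FPKM in HFHG and 30.4 ± 1.25 FPKM in LG (SD, n = 4 each), and the share of Angpt1 in it was 46.9% ± 1.82 and 6.13% ± 0.941.

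By mean FPKM, the order of the members in LG was Vegfb, Vegfa, Angpt4, Pgf, Vegfc, Flt4, Angpt1, Flt1, Kdr and Angpt2. Vegfb and Vegfa did not differ there beyond their spread, and the ranges of Kdr and Angpt2 overlapped. In HFHG the order was Vegfa, Vegfb, Vegfc, Angpt4, Angpt1, Pgf, Flt4, Flt1, Kdr and Angpt2. Angpt4 and Angpt1 were close there, since HFHG replicate 1 had the lowest Angpt4 and the highest Angpt1 of the group, and Kdr and Angpt2 overlapped again. From LG to HFHG, Pgf moved from place 4 to place 6, Angpt1 from place 7 to place 5 and Vegfc from place 5 to place 3. Angpt4 moved from place 3 to place 4 and Flt4 from place 6 to place 7, Vegfa and Vegfb changed places at the top, and Flt1, Kdr and Angpt2 kept theirs.

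**Figure D3:**
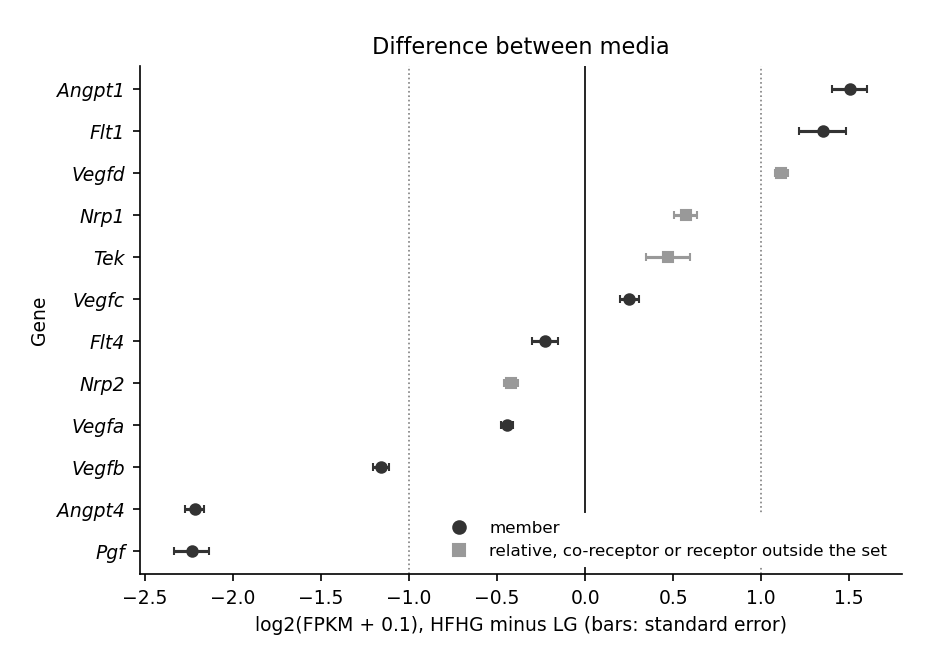
Difference of log2(FPKM + 0.1) between HFHG and LG with its standard error for the 8 tested members (black circles) and for Vegfd, Nrp1, Nrp2 and Tek (grey squares), with dotted lines at a 2-fold change. Angpt1 and Flt1 lie highest, Pgf and Angpt4 lie lowest at -2.24 and -2.22, and Vegfc, Flt4 and Vegfa are nearer to 0.

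The genes whose profile over the 8 libraries was most like that of Pgf were sought by the root mean square difference of the mean-centered log2 values over 11710 genes. The 5 nearest were Prl8a9 (0.105), Sh2d6 (0.105), Angpt4 (0.128), Map7d2 (0.146) and Klf15 (0.149). In HFHG, Sh2d6, Map7d2 and Klf15 had means of only 0.468, 0.169 and 0.451 FPKM. At such levels the pseudocount understates the difference, so their likeness to Pgf depends on it. Another member, Angpt4, was thus the third nearest gene to Pgf. Prl8a9 belongs to the prolactin family, whose placental members are near copies of each other, so its value is uncertain. The 5 nearest to Vegfa were Reep3 (0.0228), Caprin1 (0.0275), Rbpj (0.0313), Cers6 (0.0332) and Cd164 (0.0340), none of which is a member. With only 2 groups, likeness mainly reflects the size of the difference between the media.

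The partners of these ligands were then compared, from a list of 17 binding partners and associated genes in the table, of which 14 were tested. Among them 8 rose and 4 fell in HFHG (85.7% called, against 64.8% of all tested genes), with a median log2 difference of 0.21 (0.02 over all tested genes). The neuropilins, co-receptors that bind VEGF and class 3 semaphorins, differed in opposite directions. Nrp2 was abundant and fell, from 77.8 ± 4.21 to 58.1 ± 1.88 FPKM (SD, n = 4 each, log2 difference -0.42, adjusted p = 1.08e-06 by limma), with LG replicate 4 at 71.6 FPKM as the lowest LG library. Nrp1 rose from 3.06 ± 0.133 to 4.60 ± 0.295 FPKM (log2 difference 0.57, adjusted p = 7.63e-06 by limma). Itgb3, the integrin subunit that pairs with integrin alpha V, fell from 14.3 ± 0.708 to 6.84 ± 0.170 FPKM (log2 difference -1.05, adjusted p = 8.18e-10 by limma).

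Tek, the receptor of the angiopoietins, was low at 0.8292, 0.916, 0.685 and 0.770 FPKM in HFHG and 0.600, 0.505, 0.523 and 0.561 FPKM in LG. The groups did not overlap, and Tek rose by 0.47 on the log2 scale (SE 0.127, adjusted p = 0.00576 by limma), but not with quantile normalization (0.29, adjusted p = 0.0645). Tie1, the related orphan receptor, had 21 reads in all in HFHG and 8 in LG, with 0 reads in LG replicates 2 and 4, where a count of 0 allows up to 3 reads. The ratio per library total was 2.56 (95% exact interval 1.09 to 6.68, counting error only), and the difference did not pass an exact two-sided permutation test (p = 0.143), which cannot go below 0.0286 with 4 libraries against 4. Ptprb, the phosphatase that restrains Tie2, had 74 and 80 reads, a ratio of 0.902 (95% exact interval 0.648 to 1.25, exact two-sided permutation p = 0.714).

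Because Vegfa is a classical target of the hypoxia-inducible factors (HIF), genes of that pathway were examined. Of 21 other targets, all tested, 14 fell and 3 rose in HFHG (81.0% called, against 64.8% of all tested genes, median log2 difference -0.35). The largest decreases were those of Ero1a, an oxidase of the endoplasmic reticulum, from 588 ± 23.2 to 203 ± 1.38 FPKM (log2 difference -1.53, adjusted p = 2.68e-13 by limma), and of hexokinase 2 (Hk2), from 46.5 ± 0.884 to 16.4 ± 0.412 FPKM (-1.49, adjusted p = 9.90e-13 by limma). Slc2a1, the glucose transporter GLUT1, fell from 353 ± 7.27 to 171 ± 4.02 FPKM (-1.04, adjusted p = 2.46e-12 by limma). Car9, Ndrg1, Bnip3 and Pgk1 fell as well, by 0.76, 0.68, 0.35 and 0.44 on the log2 scale. Adm, which encodes the vasodilator peptide adrenomedullin, rose from 516 ± 6.18 to 1012 ± 6.23 FPKM (log2 difference 0.97, adjusted p = 4.37e-13 by limma), so the targets did not move as one. Adm, Car9, Ndrg1, Bnip3 and Pgk1 were chosen after their values were seen. Whether HIF had a part in the differences of these targets or of Vegfa was not tested.

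The HIF subunits and their regulators split in direction, with 4 of 10 tested genes higher and 5 lower (median log2 difference -0.02). Of these 10 genes, 90% were called, against 64.8% of all tested genes. Hif1a had a log2 difference of -0.27 (adjusted p = 3.78e-06 by limma), and Epas1, which encodes HIF-2 alpha, rose from 2.81 ± 0.115 to 5.38 ± 0.297 FPKM (0.91, adjusted p = 6.17e-08 by limma). Egln1, the prolyl hydroxylase that marks HIF for degradation and is itself a HIF target, fell from 130 ± 2.58 to 84.3 ± 2.27 FPKM (-0.62, adjusted p = 6.74e-10 by limma). Cited2, which competes with HIF for its coactivator, rose by 0.55 on the log2 scale. Among 13 tested genes of a further list of regulators of Vegfa or Pgf, 7 rose and 1 fell (median 0.16). The share called, 61.5%, was near the 64.8% of all tested genes. Zfp36l1, a protein that promotes the decay of mRNA with AU-rich elements, including that of Vegfa, rose from 45.9 ± 0.875 to 85.5 ± 1.55 FPKM (0.90, adjusted p = 1.87e-11 by limma). Tfeb, a factor of lysosome formation with a mean below 1 FPKM that passed the filter only through HFHG, had the highest difference of the list (0.97). Esrra, a nuclear receptor, rose by 0.60, and Atf4, a stress factor that can induce Vegfa, fell by 0.50 on the log2 scale. Mtf1, a metal-responsive factor that can drive Pgf, had a log2 difference of -0.08 (adjusted p = 0.287 by limma). The part of any of these regulators in the differences of the members was not tested.

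Downstream, 50 of 53 genes of VEGF receptor signaling were tested, and 21 rose and 16 fell (median log2 difference 0.02). Of those tested, 74% were called, against 64.8% of all tested genes. No gene of this list was changed more than 2-fold by the tested difference. The largest differences were those of Mapk11 (a p38 kinase, -0.71), Sphk1 (sphingosine kinase, -0.66) and Ptgs2 (cyclooxygenase 2, 0.55), each with an adjusted p-value of at most 2.51e-05 by limma. Nos3, the endothelial nitric oxide synthase, stayed below the filter.

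Genes listed as inhibitors of vessel growth were mostly higher in HFHG. Of 13 tested genes, 11 rose and 1 fell (92.3% called, against 64.8% of all tested genes, median log2 difference 0.69). Ism1, which encodes isthmin, rose from 1.38 ± 0.186 to 7.40 ± 0.380 FPKM (2.35, adjusted p = 1.86e-10 by limma). Sema3f, a ligand of Nrp2, rose from 3.17 ± 0.350 to 7.92 ± 0.249 FPKM (1.30, adjusted p = 9.24e-09 by limma). Thrombospondin 1 (Thbs1) rose from 806 ± 31.5 to 1821 ± 31.6 FPKM (1.18, adjusted p = 2.62e-12 by limma). Htra1 was the one that fell (-0.48), and Vash2 did not pass (0.11, adjusted p = 0.340 by limma). Whether each listed gene inhibits vessel growth was not tested.

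**Figure D4:**
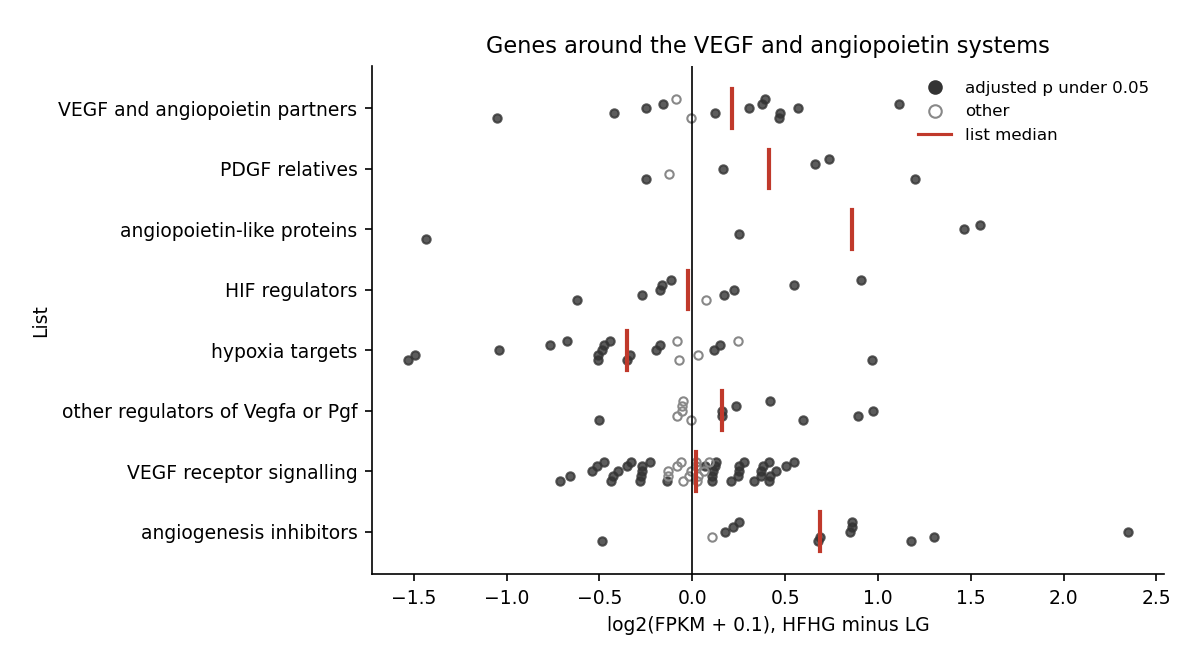
Difference of log2(FPKM + 0.1) between HFHG and LG for each tested gene of 8 lists, with filled points at an adjusted p-value below 0.05 and red lines at the list medians. The hypoxia targets have a median of -0.35 and the angiogenesis inhibitors one of 0.69, while the lists of HIF regulators and of VEGF receptor signaling are centered near 0.

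Markers of other cells that express members of these families were measured beside them. Of the endothelial markers, 4 of 16 passed the filter, among them Flt1 and Tek. Egfl7 rose by 0.34 on the log2 scale, and Vwf, which passed only through the LG libraries, fell from 1.04 ± 0.0763 to 0.393 ± 0.0271 FPKM (SD, n = 4 each). The summed endothelial markers, which include the members Flt1 and Kdr, were 7.10 to 8.44 FPKM in HFHG and 5.47 to 6.70 FPKM in LG. Without these members, the other 14 summed to 5.79 to 7.12 FPKM in HFHG and 5.02 to 6.12 FPKM in LG, and the groups overlapped. Mural cell markers, found on pericytes and smooth muscle, summed to 112 to 118 FPKM in HFHG and 81.6 to 84.6 FPKM in LG. Most of it was Acta2 (69.1 ± 1.22 FPKM in HFHG and 45.7 ± 1.77 FPKM in LG) and Pdgfrb (28.8 ± 0.197 and 25.7 ± 0.639 FPKM). Of the 10 listed, 5 were tested and all 5 rose (100% called, where 34% of all tested genes were higher). The other 5 (Rgs5, Kcnj8, Abcc9, Des and Higd1b) stayed below 0.5 FPKM in every library. Rgs5 was at 0.203 ± 0.0429 FPKM in HFHG and 0.0981 ± 0.0495 FPKM in LG, and Kcnj8 at 0.0108 ± 0.00890 and 0.0462 ± 0.0587 FPKM. Of the 12 tested macrophage markers 9 fell and 1 rose (83.3% called, where 64.8% of all tested genes were called and 30.8% were lower), with Adgre1 falling from 38.0 ± 1.28 to 26.5 ± 1.23 FPKM and Csf1r from 8.69 ± 0.306 to 7.92 ± 0.356 FPKM. The part of macrophages or mural cells in the differences of the members was not tested.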

How the data were processed

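The authors deposited FPKM values of 19301 genes for 4 HFHG and 4 LG libraries, with replicates kept separate. The submitters' processing notes name HISAT2 2.1.0 and mm10, and the counting program and annotation are not given in the sources used here. FPKM is relative to each library's total. Because FPKM equals reads divided by gene length and library total, whole reads were recovered for 19301 of 19301 genes (tolerance 0.01 read). Groups came from the sample titles.

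Genes with at least 0.5 FPKM in at least 4 of 8 libraries were fitted in limma 3.58.1 (R 4.3.3) on log2(FPKM + 0.1), HFHG minus LG, with an intensity trend and Benjamini-Hochberg adjustment. In simulated counts with 200 changed genes among 11666 tested, 99% of 2-fold changes were found and 4.83% of calls were false. The simulation gave all genes the same dispersion and held no deviant library. That dispersion was lower than the spread of some members implies, such as Pgf in HFHG (16.6% against 6.50% from counting). The share of 2-fold changes found need not hold for such genes. The simulation also changed far fewer genes than were called here, so its rate of false calls need not hold for these data. P-values measure the spread between these cultures.

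The members and lists were chosen with earlier results of these data known. Named were all members, Nrp1, Nrp2, Tek, Tie1, Ptprb and Vegfd, per list up to 3 called genes with the largest difference and a mean of at least 1 FPKM, the 5 genes nearest to Pgf and Vegfa, and defining markers. Other genes were chosen after their values were seen (such as Hif1a, Mtf1, Htra1, Vash2, Nos3, Tfeb, Pdpn, Egfl7, Vwf, Lyz2, Cd163, Lyve1, Mkx, Egr1, Acta2, Pdgfrb and Kcnj8). Positions are from GENCODE M21 (GRCm38), promoters from RefSeq (GRCm38.p6). Alternatives covered pseudocount, filter, scaling, replicate block, robust fit, voom on recovered reads and leaving out each library.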

Additional observations from a re-analysis of the deposited data

Results flagged for a closer look

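Among 76 groups of 4 libraries checked, 9 held a library whose gap to the nearest other, as a share of the range of the group, exceeded the 95% critical value of Dixon's test, where chance gives about 1 in 20. Of the members, Vegfb was highest in LG replicate 4 at 75.5 FPKM, against 65.5 to 66.8 FPKM in the other LG libraries. Kdr was lowest in HFHG replicate 4 at 0.0872 FPKM (25 reads), against 0.159 to 0.171 FPKM (45 to 50 reads). LG replicate 4, which stood apart in the principal component analysis, also had the highest Angptl4 (95.6 FPKM, others 87.7 to 88.7) and Slc2a1 (363 FPKM, others 348.2 to 349.9) and the lowest Hk2 (45.1 FPKM, others 46.8 to 47.0). In HFHG, Angptl4 was highest in replicate 1 (266.9 FPKM, others 262.6 to 263.1) and Zfp36l1 in replicate 2 (87.9 FPKM, others 84.65 to 84.95). In LG replicate 1, Pdgfra was highest (9.99 FPKM, others 9.44 to 9.48) and Zfp36l1 lowest (44.6 FPKM, others 46.3 to 46.5).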

How the results depend on the processing

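Over 18 alternatives the log2 differences of the 8 tested members kept their sign, and 142 of 144 values kept their side of the adjusted threshold, the exceptions being 2 of Flt4 (-0.17 with FPKM rescaled to the same sum, adjusted p = 0.0764, and -0.20 without HFHG replicate 1, adjusted p = 0.0519, by limma). The range was -2.31 to -2.005 for Pgf, -2.25 to -2.06 for Angpt4, -1.20 to -1.10 for Vegfb, -0.48 to -0.38 for Vegfa, 0.22 to 0.31 for Vegfc, 1.17 to 1.60 for Angpt1 and 0.62 to 1.56 for Flt1. The low values of Flt1 make it depend on the pseudocount, and with a pseudocount of 1 only 1 member, not 2, was more than 2-fold higher. Kdr and Angpt2 entered only without the filter and did not pass. With quantile normalization, 2 partners in place of 4 were lower, 5 hypoxia targets in place of 3 were higher, and 2 of the other regulators in place of 1 were lower (3 with median-ratio scaling). With quantile normalization, median-ratio scaling or voom on recovered reads, 2 PDGF relatives in place of 1 were lower, and leaving out 1 library gave 1 to 2 (2 without LG replicate 2). With FPKM rescaled to the same sum, 3 HIF regulators in place of 5 were lower, and without the filter 5 angiopoietin-like genes in place of 3 were higher. The cause was not tested. No pairing of the libraries by replicate number was detected, as same-numbered libraries had correlations of -0.0736 to -0.00558 over genes. This cannot exclude that same-numbered cultures shared an origin. With the replicate block 3 members were higher and 5 lower, as without it. Depth limits Kdr, Angpt2, Tie1 and Ptprb, and intervals cover counting error only.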

Other observations

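The PDGF family, which shares its cystine-knot fold with the VEGF ligands, and the angiopoietin-like proteins were compared in the same fit. Of 6 tested PDGF relatives, 4 rose and 1 fell in HFHG (83.3% called, against 64.8% of all tested genes, median log2 difference 0.41). The receptor Pdgfra rose from 9.59 ± 0.263 to 22.2 ± 0.254 FPKM (SD, n = 4 each, log2 difference 1.202, adjusted p = 2.19e-11 by limma), Pdgfrl rose from 16.9 ± 0.977 to 28.2 ± 0.806 FPKM (0.74, adjusted p = 1.19e-08 by limma), and the ligand Pdgfd rose from 16.2 ± 0.862 to 25.6 ± 0.682 FPKM (0.66, adjusted p = 2.89e-08 by limma). Of 4 tested angiopoietin-like genes, 3 rose and 1 fell (100% called, median 0.86). Angptl4, an inhibitor of lipoprotein lipase, rose from 90.1 ± 3.74 to 264 ± 2.03 FPKM (1.55, adjusted p = 3.39e-13 by limma) and Angptl7 from 34.6 ± 1.16 to 95.5 ± 1.26 FPKM (1.46, adjusted p = 5.92e-13 by limma). Angptl6 fell from 7.05 ± 0.349 to 2.56 ± 0.336 FPKM (-1.44, adjusted p = 1.18e-08 by limma). In HFHG the mean of Angptl4 was above the sum of the VEGF ligands, Vegfd included, and in LG it was below it.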
